A study of Rattus norvegicus with 4 samples.

Results

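The mitochondrial ribosomal protein genes are those nuclear genes whose products build the ribosome inside mitochondria. Members were taken from the deposited table by symbol, as protein-coding rows named Mrpl (large subunit) or Mrps (small subunit) followed by a digit. The rule gave 73 of the 16290 genes in the table, 43 named Mrpl and 30 named Mrps. It used no measured value. The symbols Mrpl9, Mrpl11, Mrpl24, Mrpl30, Mrpl36 and Mrpl53 had no such row and are not analysed here.

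The RNA came from cultures of rat heart muscle cells (neonatal cardiomyocytes, postnatal day 3). The treated cells had received an adenovirus vector, a viral gene carrier, encoding Pdk3 (libraries Pdk3 1 and Pdk3 2). The control cells had received a mock adenovirus vector (libraries Mock 1 and Mock 2). All cells were grown in the same serum-containing medium with pyruvate. The labels name no strain, vector promoter, dose or time after vector addition, and do not say whether the 2 libraries of a group came from separate cultures or animals. The p-values therefore measure how far these libraries spread, and that spread may be technical.

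A mitochondrion makes its own small set of proteins, all of them parts of the respiratory chain and ATP synthase, on a dedicated ribosome. The ribosomal RNAs of that ribosome come from mitochondrial DNA, while every ribosomal protein is encoded in the nucleus, made in the cytosol and imported. Some of these proteins have bacterial counterparts and others are specific to mitochondria. Heart muscle is rich in mitochondria. Pdk3 encodes a pyruvate dehydrogenase kinase, which phosphorylates and inhibits the enzyme complex that passes pyruvate into the citric acid cycle. The comparison asks how the transcripts of the mitochondrial ribosome differ when Pdk3 is expressed.

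Values are normalised read counts as deposited by the authors, which summed to 4476649 and 4470251 in the Pdk3 libraries and to 4448199 and 4454567 in the mock libraries. Pdk3 itself had 1218 and 1177 in the Pdk3 libraries, against 396 and 411 in the mock libraries. All 7 cardiomyocyte markers examined were measured in every library and summed to 16199 and 16007 in the Pdk3 libraries, against 15992 and 15850 in the mock libraries. Among them Actn2 and Myh6 rose by 0.09 each on the log2 scale and Ryr2 fell by 0.06 (limma adjusted p = 0.0112, 0.00738 and 0.00613), while Tnnt2 (log2 fold change 0.06) and Nkx2-5 (-0.09) were among those that did not pass. Markers of other cells were measured too. The 4 macrophage markers summed to 710 and 685 in the Pdk3 libraries, against 891 and 867 in the mock libraries, and all 4 fell (limma). The 3 smooth muscle markers summed to 2234 and 2232 in the Pdk3 libraries and to 1919 and 1971 in the mock libraries. Of these Cnn1 and Tagln rose by 0.35 and 0.25 on the log2 scale (limma adjusted p = 0.000597 and 0.00183), and Myh11 (0.04) did not pass (limma adjusted p = 0.325). The 4 fibroblast markers summed to 4902 and 4752, against 4893 and 4853, and the 3 endothelial markers to 751 and 730, against 754 and 791, in the Pdk3 and mock libraries. These 2 sums hold genes that went different ways: Cdh5 fell by 0.52 and Dcn by 0.31 on the log2 scale (limma adjusted p = 0.00247 and 0.011), Tek had -0.34 and Kdr 0.13 without passing, and the remaining 3 fibroblast markers did not pass. The 2 erythroid markers summed to 22 and 22 in the Pdk3 libraries and 27 and 39 in the mock libraries, with Hbb at 1 and 2 in the Pdk3 libraries and 2 and 8 in the mock libraries. The part of these shifts in cell markers in the values below was not tested. In such bulk samples fewer cells of a type and less RNA per cell cannot be told apart.

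In the deposited values, transcripts of the mitochondrial ribosome differed little between the groups. Of the 71 members that reached a value of 10 in 2 or more libraries, 3 rose (Mrpl19, Mrpl12 and Mrps27) and 1 fell (Mrps18b) in the Pdk3 libraries at an adjusted p under 0.05 (limma, Benjamini-Hochberg over all genes tested). That is 5.63% of the members tested, beside 22.9% of all 12838 genes tested (11.7% higher and 11.3% lower). The median log2 fold change of the 71 members, Pdk3 over mock on the log2(value + 1) scale, was 0.045, or 1.032-fold, beside -0.007 over all genes tested, and it turned to -0.032 with values scaled so that the median cytosolic ribosomal protein gene was level. Without any 1 of the 4 libraries limma called 0 members and 0 of all genes, with 4 to 10 members at an unadjusted p under 0.05 by limma (13 members with all libraries, beside 36.4% of all genes tested) and 2 to 3 by the exact binomial test of summed reads (5 members with all libraries, beside 27.6% of all genes tested). Of the 4 calls, 1 (Mrpl12) held with no filter on low values and 0 without limma's intensity trend, where 12 members had an unadjusted p under 0.05. Log2 fold changes ran from -0.193 for Mrps33 to 0.299 for Mrpl19. A log2 fold change of at least 0.2 in size occurred in 1 member, or 1.41%, beside 30.7% of all genes tested. The median size of a log2 fold change was 0.062 among the members and 0.116 among all genes. The lists were not matched for value. Member means ran from 84.0 to 500.2 with a median of 229.0. Means over all genes tested had a median of 223.8 and quartiles of 80.6 and 460.0. Lower values carry more counting noise, and its part in the sizes of these fold changes was not tested. Median limma standard errors were 0.06 for members and 0.065 for all genes.

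**Figure D1:**
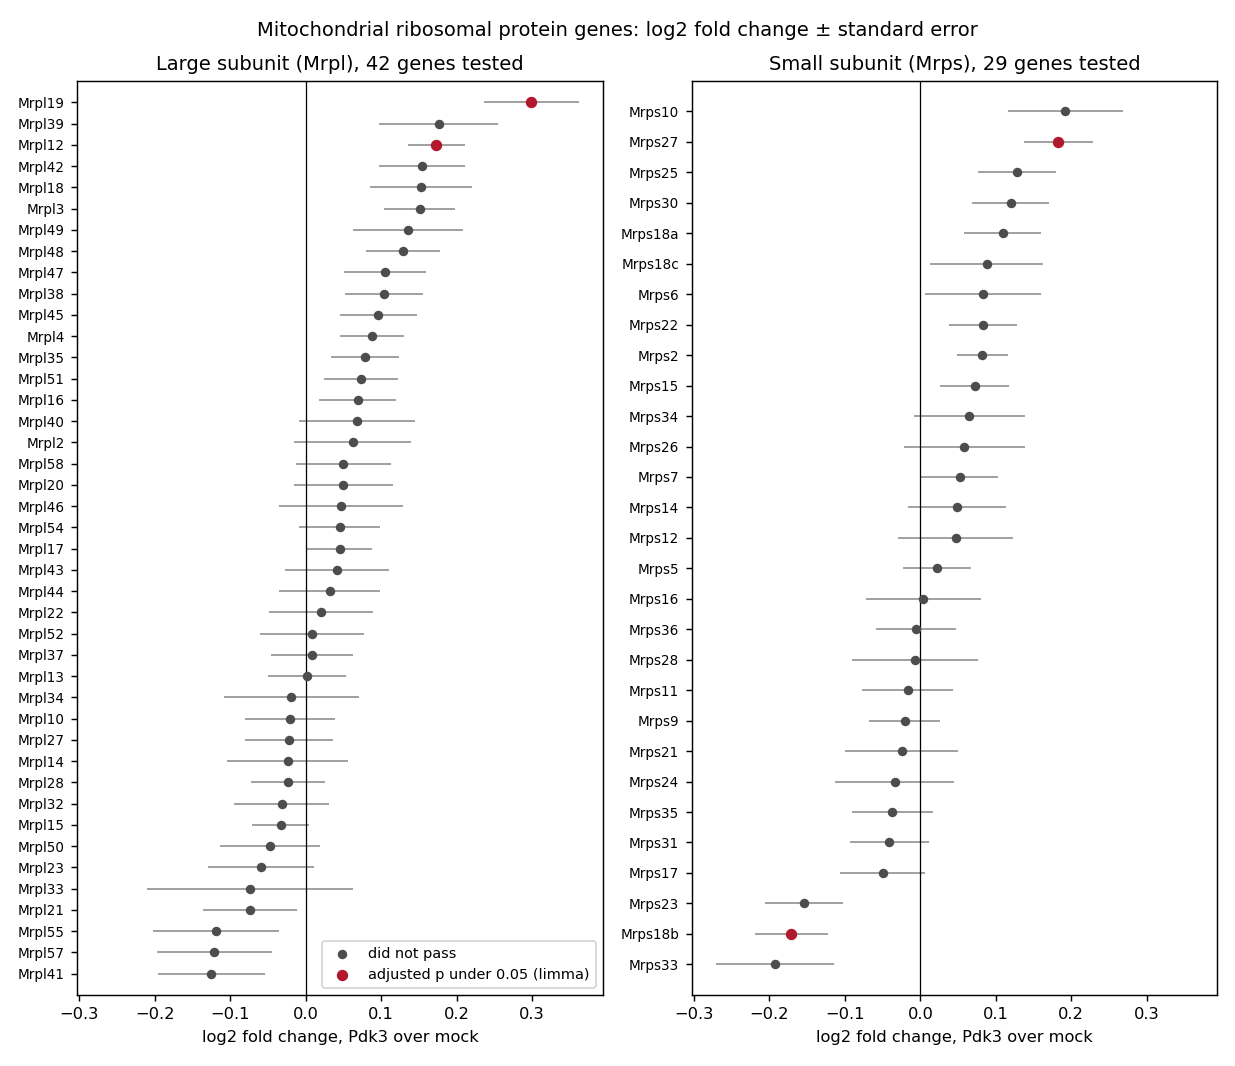
Log2 fold change of Pdk3 over mock (horizontal axis) for each of the 42 large subunit genes and 29 small subunit genes tested, with limma standard errors as bars and genes past the threshold in red. All points lie between -0.193 and 0.299, and 4 of 71 are red.

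The depth limits what could have been seen in single genes. Member means lay between 84.0 for Mrpl33 and 500.2 for Mrps2, with a median of 229.0, and 68 of 71 members had all 4 library values within 20% of each other. That share was not taken over all genes, so it does not set the members apart. For each member an exact Clopper-Pearson 95% interval was taken from the reads summed per group. These intervals had a median width of 0.382 on the log2 scale. Their lowest bound was -0.438 (Mrps33) and their highest 0.497 (Mrpl19). By counting error a log2 fold change of 0.5 or more in size thus lay outside the interval of each of the 71 genes. These bounds hold for the deposited values, and whether fold changes are compressed in them was not tested. The intervals cover counting error only, since reads were summed per group and variation between libraries or cultures does not enter. They also treat reads as independent, while without molecular identifiers several reads can stem from 1 molecule. Within pairs the members spread less than counting noise, at 0.349 of the counting variance in the Pdk3 pair and 0.321 in the mock pair. The intervals are not adjusted for either point. Of the 71 intervals 66 held 0, while 4 lay above it and 1 below it. Intervals were not taken over all genes. An unadjusted p under 0.05 by the exact binomial test of summed reads occurred in 7.04% of members, beside 27.6% of all genes tested.

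Mrpl19 encodes a large subunit protein with a bacterial counterpart. Mrpl19 (ENSRNOG00000006968, rn6 chr4:112703041-112707270, minus strand) had normalised counts of 244 and 235 in the Pdk3 libraries, against 188 and 201 in the mock libraries. Both Pdk3 libraries stood above both mock libraries. The mean was 239.5 ± 6.4 with Pdk3 and 194.5 ± 9.2 in mock (SD, n = 2 each), a log2 fold change of 0.30 ± 0.06 (SE; limma adjusted p = 0.0135) or 1.231-fold. A counting floor, which replaces limma's p by the exact binomial p of summed reads where the binomial p is larger, gave an adjusted p of 0.0217.

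Mrpl12 encodes the protein of the flexible stalk that recruits translation factors to the large subunit. Mrpl12 (ENSRNOG00000036695, chr10:109658032-109662535, plus strand) had 422 and 425 in the Pdk3 libraries, against 376 and 375 in the mock libraries, without overlap. Its log2 fold change was 0.17 ± 0.04 (limma adjusted p = 0.0165, and 0.0896 floored at counting noise). With values scaled so that the median cytosolic ribosomal protein gene was level, it was 0.10 (limma adjusted p = 0.0956). Mrpl10, which anchors that stalk, had 292 and 310 in the Pdk3 libraries and 319 and 292 in the mock libraries (log2 fold change -0.02, limma adjusted p = 0.837), and the groups overlapped.

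Mrps27 encodes a small subunit protein of the RNA-binding pentatricopeptide repeat family. Mrps27 (ENSRNOG00000017272, chr2:29598344-29666724, plus strand) had 473 and 449 in the Pdk3 libraries, against 395 and 417 in the mock libraries, again without overlap. The log2 fold change was 0.18 ± 0.05 (limma adjusted p = 0.0265, and 0.0581 floored at counting noise), or 0.11 with the cytosolic genes level (limma adjusted p = 0.116). Ptcd3, another repeat protein of the small subunit that carries a different kind of symbol and so is not a member, had 681 and 649 in the Pdk3 libraries, against 613 and 610 in the mock libraries. It rose by 0.12 on the log2 scale (limma adjusted p = 0.0422, 0.148 floored at counting noise, and 0.0505 with the replicate number as a block), or by 0.04 with the cytosolic genes level, without passing (limma adjusted p = 0.375).

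Mrps18b was the 1 member that fell. Mrps18b (ENSRNOG00000000804, chr20:3344870-3350927, plus strand) had 280 and 281 in the Pdk3 libraries, against 310 and 322 in the mock libraries. Both Pdk3 libraries stood below both mock libraries, at -0.17 ± 0.05 on the log2 scale (limma adjusted p = 0.0388, and 0.171 floored at counting noise). With the replicate number as a block its adjusted p was 0.0569. Mammals have 3 proteins related to bacterial S18, and structures of the mammalian mitoribosome place the product of Mrps18a in the large subunit and those of Mrps18b and Mrps18c in the small one. Mrps18a had 298 and 292 in the Pdk3 libraries, against 267 and 280 in the mock libraries (log2 fold change 0.11, limma adjusted p = 0.165). Mrps18c had 141 and 144 in the Pdk3 libraries, against 135 and 133 in the mock libraries (log2 fold change 0.09, limma adjusted p = 0.444). Neither of these passed, and the difference between Mrps18b and its relatives was not tested.

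**Figure D2:**
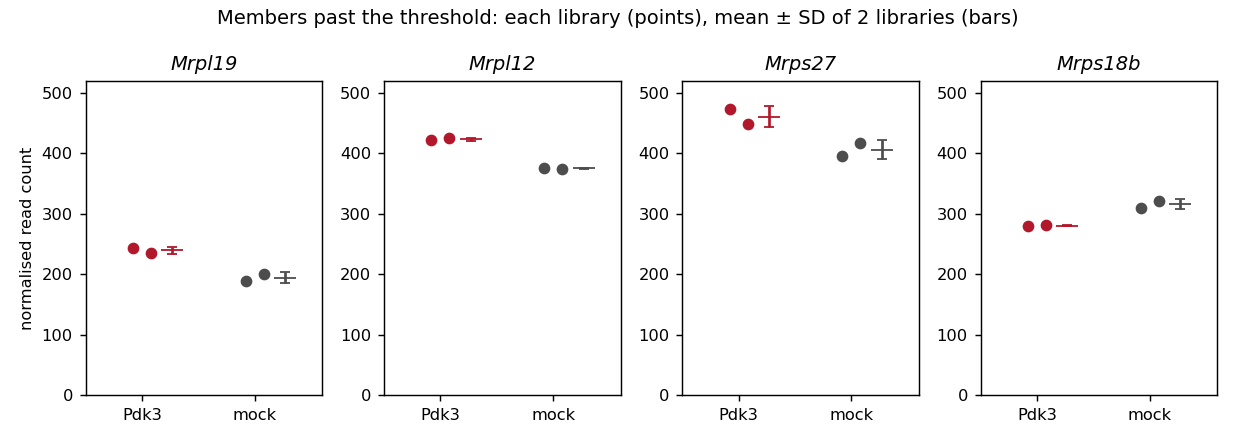
Normalised read count (vertical axis, from 0) of the 4 members past the threshold in each Pdk3 and mock library (points), with the mean ± SD of 2 libraries beside them. The Pdk3 points of Mrpl19, Mrpl12 and Mrps27 lie above the mock points, and those of Mrps18b at 280 and 281 lie below the mock points at 310 and 322.

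Of these 4 genes, 3 had a promoter window among the RefSeq sequences of build GRCr8, and Mrpl19 had none. The last 150 bases before the annotated start are given for them, 5′ to 3′ on the gene's strand, with searched motifs that lie wholly inside them in capitals. Mrpl17 is shown beside them as another gene with the motif seen in Mrps18b. Mrpl46 is shown because it lies head to head with another member, Mrps11.
Mrpl12 (chr10:106256596-106256745, plus strand): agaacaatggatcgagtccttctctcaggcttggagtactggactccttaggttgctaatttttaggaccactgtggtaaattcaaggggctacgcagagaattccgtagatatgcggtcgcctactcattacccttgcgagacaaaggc
Mrps27 (chr2:32474054-32474203, plus strand): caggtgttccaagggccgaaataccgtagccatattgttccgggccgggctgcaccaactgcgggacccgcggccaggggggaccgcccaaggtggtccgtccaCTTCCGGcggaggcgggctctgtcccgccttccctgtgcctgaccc
Mrps18b (chr20:2842856-2843005, plus strand): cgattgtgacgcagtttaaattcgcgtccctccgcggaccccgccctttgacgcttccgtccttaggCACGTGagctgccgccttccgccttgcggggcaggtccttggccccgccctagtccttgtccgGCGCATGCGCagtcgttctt
Mrpl17 (chr1:169575700-169575849, minus strand): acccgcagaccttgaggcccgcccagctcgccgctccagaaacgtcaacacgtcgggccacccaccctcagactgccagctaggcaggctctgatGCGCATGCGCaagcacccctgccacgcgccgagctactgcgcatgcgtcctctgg
Mrpl46 (chr1:142117031-142117180, minus strand): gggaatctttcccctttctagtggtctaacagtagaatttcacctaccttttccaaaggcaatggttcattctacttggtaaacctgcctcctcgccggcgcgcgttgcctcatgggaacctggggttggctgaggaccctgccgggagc

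Of the 73 members 57 had such a window, of 300 bases from 250 before to 50 after the start. Motifs were searched on both strands over the whole window, no matches of different motifs overlapped, and a match is a description of the letters, not of a bound site. The core motif of nuclear respiratory factor NRF1, whose letters are the capitals nearest the start in the windows of Mrps18b and Mrpl17, was in 4 of the 57 windows (7.02%), against 1.73% of 11210 windows of genes in the table. These 4 genes were Mrpl17, Mrpl32, Mrpl44 and Mrps18b, with log2 fold changes from -0.171 to 0.045. The letters CCGGAAG, bound by factors of the ETS family such as GABPA, were in 18 windows (31.6%), against 28.6% of 49 windows of cytosolic ribosomal protein genes and 16.0% of genes in the table. The extended motif of YY1 was in 7 (12.3%), against 1.77% of genes in the table. The E-box CACGTG was in 4 (7.02%), against 10.2% of cytosolic and 9.3% of all genes in the table. The E2F-type letters TTTGGCGC or TTTCCCGC were in 3 (5.26%), against 2.81% of genes in the table. The NRF1, YY1 and E2F motifs were in 0 of the 49 cytosolic windows. The 29 members with any of these motifs had a median log2 fold change of 0.045. The 27 tested members with a window and none of them had a median of 0.049.

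Both subunits had median log2 fold changes just above 0, and the difference between them was not tested. Among 42 large subunit genes tested 2 rose and 0 fell, with a median log2 fold change of 0.045 (-0.032 with cytosolic genes level) and 28 genes above 0. Among 29 small subunit genes tested 1 rose and 1 fell, with a median of 0.047 (-0.030 with cytosolic genes level) and 17 genes above 0. The small subunit median was 0.013 without members that overlap another gene. It was 0.015 without Pdk3 1 and 0.020 without Mock 1, while the large subunit median stayed between 0.039 and 0.045 without any 1 library. An unadjusted p under 0.05 occurred in 5 of 42 large and 8 of 29 small subunit genes by limma, beside 36.4% of all genes, and in 3 large and 2 small subunit genes by the exact binomial test, beside 27.6%. Summed over the genes of each subunit, large subunit values came to 10393 and 10451 in the Pdk3 libraries and 10015 and 10112 in the mock libraries. Small subunit values came to 7420 and 7310 in the Pdk3 libraries, against 7132 and 7280 in the mock libraries. In both sums the Pdk3 libraries stood above the mock libraries, by 3.56% of the mock mean for the large and 2.21% for the small subunit. The ratio of the large to the small subunit sum was 1.401 and 1.43 in the Pdk3 libraries and 1.404 and 1.389 in the mock libraries, so the groups overlapped.

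**Figure D3:**
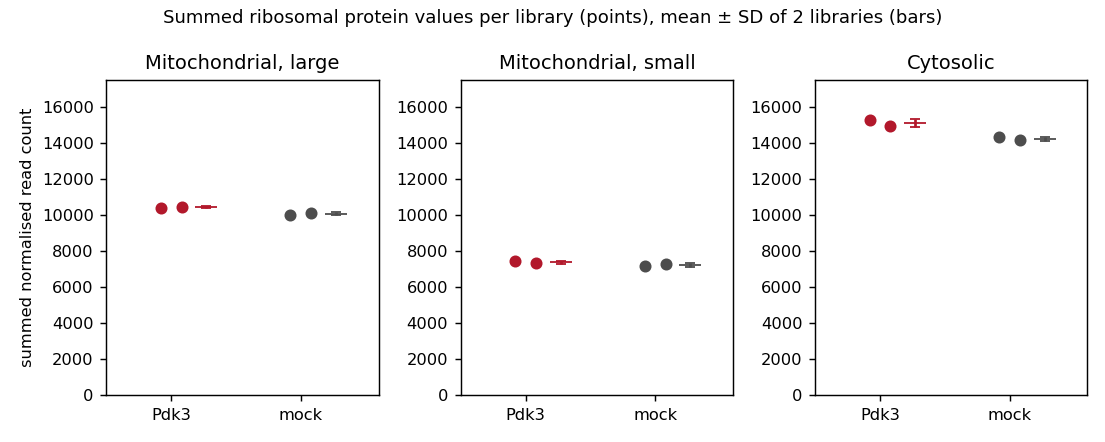
Summed normalised read count (vertical axis, from 0) of the large subunit, small subunit and cytosolic ribosomal protein genes in each Pdk3 and mock library (points), with the mean ± SD of 2 libraries. The cytosolic sums are 15259 and 14939 in the Pdk3 libraries, against 14298 and 14143 in the mock libraries.

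Of large subunit genes named for their roles besides Mrpl12, none passed. Mrpl45 encodes the protein at the exit tunnel that faces the inner membrane. It had 344 and 359 in the Pdk3 libraries, against 318 and 340 in the mock libraries (log2 fold change 0.10, limma adjusted p = 0.222). Mrpl58, a peptidyl-tRNA hydrolase built into the ribosome, had 262 and 252 in the Pdk3 libraries and 237 and 260 in the mock libraries (log2 fold change 0.05, limma adjusted p = 0.613). The groups of Mrpl58 overlapped and those of Mrpl45 did not. Mrpl44, which resembles RNase III, had 239 and 224 in the Pdk3 libraries, against 217 and 236 in the mock libraries (log2 fold change 0.03, limma adjusted p = 0.768).

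Mrpl3 stood nearest to the threshold among the large subunit genes that missed it, and is named for that reason after its values were seen. It encodes the counterpart of bacterial L3. It had 398 and 375 in the Pdk3 libraries, against 354 and 342 in the mock libraries (log2 fold change 0.15, limma adjusted p = 0.0579). Mrpl39 had 158 and 164 in the Pdk3 libraries, against 136 and 149 in the mock libraries (log2 fold change 0.18, limma adjusted p = 0.153). At the other end Mrpl41 had 150 and 146 in the Pdk3 libraries, against 160 and 163 in the mock libraries (log2 fold change -0.13, limma adjusted p = 0.245). All 3 had groups that did not overlap and none of them passed.

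The large subunit genes with the highest values were Mrpl15, Mrpl12 and Mrpl17, and those with the lowest among genes tested were Mrpl33, Mrpl34 and, with equal means, Mrpl40 and Mrpl57. These values are not divided by transcript length, so their order is one of reads and not of transcript levels. Mrpl15 had 422 and 427 in the Pdk3 libraries, against 440 and 429 in the mock libraries. Mrpl17 had 392 and 412 in the Pdk3 libraries, against 389 and 390 in the mock libraries. Mrpl33 had 91 and 73 in the Pdk3 libraries and 81 and 91 in the mock libraries. Its libraries within each group lay further apart than the group means of 82.0 and 86.0. Log2 fold changes were -0.03 for Mrpl15, 0.05 for Mrpl17 and -0.07 for Mrpl33, with limma adjusted p from 0.489 for Mrpl17 to 0.736 for Mrpl33. Mrpl34 had 123 and 138 in the Pdk3 libraries and 130 and 134 in the mock libraries (limma adjusted p = 0.903). Mrpl40 had 142 and 137 in the Pdk3 libraries, against 132 and 134 in the mock libraries (log2 fold change 0.07, limma adjusted p = 0.566).

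In the small subunit Mrps2 and Mrps9 had the highest values beside Mrps27. Mrps2, at the back of the subunit in bacteria, had 512 and 517 in the Pdk3 libraries, against 483 and 489 in the mock libraries (log2 fold change 0.08, limma adjusted p = 0.126). Mrps9 had 368 and 394 in the Pdk3 libraries and 382 and 391 in the mock libraries (log2 fold change -0.02, limma adjusted p = 0.781). Mrps10 had 155 and 147 in the Pdk3 libraries, against 131 and 133 in the mock libraries, the largest log2 fold change among small subunit genes (0.19, limma adjusted p = 0.113). The lowest values among tested genes of this subunit belonged to Mrps28, Mrps33 and Mrps18c, of which Mrps28 had 129 and 143 in the Pdk3 libraries and 137 and 136 in the mock libraries (limma adjusted p = 0.963). Mrps5 and Mrps12, the counterparts of the bacterial proteins that act in decoding accuracy, had log2 fold changes of 0.02 and 0.05 (limma adjusted p = 0.759 and 0.699).

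Besides Mrps18b, the lowest log2 fold changes belonged to Mrps33 and Mrps23, both specific to mitochondria. Mrps33 had 125 and 133 in the Pdk3 libraries, against 148 and 147 in the mock libraries (log2 fold change -0.19, limma adjusted p = 0.119). Mrps23 had 230 and 230 in the Pdk3 libraries, against 256 and 256 in the mock libraries (log2 fold change -0.15, limma adjusted p = 0.0713). Neither passed, although in both genes the Pdk3 libraries stood below the mock libraries. With values scaled so that the median cytosolic gene was level, both passed downward (limma adjusted p = 0.0343 for Mrps33 and 0.0128 for Mrps23).

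Of 71 members 26 had both Pdk3 libraries above both mock libraries and 13 had both below. All 4 members past the threshold are among these 39. Over all genes tested such separation occurred upward in 29.9% and downward in 31.1%.

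Symbol and place in the ribosome do not always match. Structures of the mammalian mitoribosome place the products of Mrps18a and Mrps30 in the large subunit. Mrps30 had 367 and 346 in the Pdk3 libraries, against 320 and 336 in the mock libraries (log2 fold change 0.12, limma adjusted p = 0.132). The product of Mrps36 is now counted as part of the 2-oxoglutarate dehydrogenase complex. It had 248 and 246 in the Pdk3 libraries and 243 and 253 in the mock libraries (log2 fold change -0.01, limma adjusted p = 0.953). Proteins of the ribosome also go by other symbols. Dap3, a GTP-binding small subunit protein, had a log2 fold change of 0.04, and Chchd1, Aurkaip1 and Gadd45gip1 had -0.03, 0.002 and 0.05. None of these 4 passed (limma adjusted p from 0.537 for Dap3 to 0.973 for Aurkaip1). Grouped by place, 45 large subunit genes had a median log2 fold change of 0.047 with 2 higher and 0 lower, and 30 small subunit genes had 0.031 with 2 higher, Mrps27 and Ptcd3, and 1 lower.

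The mitoribosome's nomenclature counts the products of Mrps18a and Mrps18b as specific to mitochondria although they are related to bacterial S18, and they are placed so here. Split by origin in this way, the 21 large subunit genes specific to mitochondria had a median log2 fold change of 0.050 with 18 above 0, and 0 of them passed limma's threshold (3 at an unadjusted p under 0.05, and 0 by the binomial test of summed reads). The 24 with bacterial counterparts had a median of 0.011 with 13 above 0, and 2 rose. In the small subunit the 14 specific genes had a median of 0.021 with 2 higher and 1, Mrps18b, lower. The 16 with bacterial counterparts had 0.035 with 0 past limma's threshold (2 at an unadjusted p under 0.05, and 0 by the binomial test). The differences between these subsets were not tested.

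Cytosolic ribosomal proteins form the ribosome that translates all other messages, and their genes served for comparison. Of 66 rows named Rpl, Rplp, Rps or Rpsa, 62 were tested and 1 passed, 1.61% beside 22.9% of all genes tested. This was Rpsa, which rose by 0.11 on the log2 scale (limma adjusted p = 0.0448, and 0.0682 with the replicate number as a block). It had 587 and 575 in the Pdk3 libraries, against 535 and 540 in the mock libraries. With cytosolic genes level Rpsa had 0.04 (limma adjusted p = 0.456). Floored at counting noise 0 of the 62 passed, beside 15.8% of all genes tested. An unadjusted p under 0.05 occurred in 14 by limma, beside 36.4% of all genes, and in 0 by the exact binomial test, beside 27.6%. Their median log2 fold change was 0.077 with 55 of 62 above 0. The mitochondrial genes had 45 of 71 above 0, and all genes tested 48.3%. In 38 of the 62 cytosolic genes both Pdk3 libraries stood above both mock libraries, and in 0 both stood below. Over all genes tested these shares were 29.9% and 31.1%. Their summed values were 6.18% higher in the Pdk3 libraries than in the mock libraries, and the summed mitochondrial values 3.0% higher. The mitochondrial sum divided by the cytosolic sum was 1.167 and 1.189 in the Pdk3 libraries, against 1.199 and 1.23 in the mock libraries. Both Pdk3 ratios lay below both mock ratios, while the nearest Pdk3 and mock ratios lay closer together than the libraries of either group. Rpl21, Rpl32, Rps27a and Rps4x each had 2 rows under 1 symbol. Reads of such copies may have been split in counting, so their values are uncertain. A symbol with 1 row could also have few reads. Rps18 had 10 and 7 in the Pdk3 libraries and 12 and 9 in the mock libraries. Its log2 fold change of -0.28 was the lowest of the cytosolic list (limma adjusted p = 0.585).

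**Figure D4:**
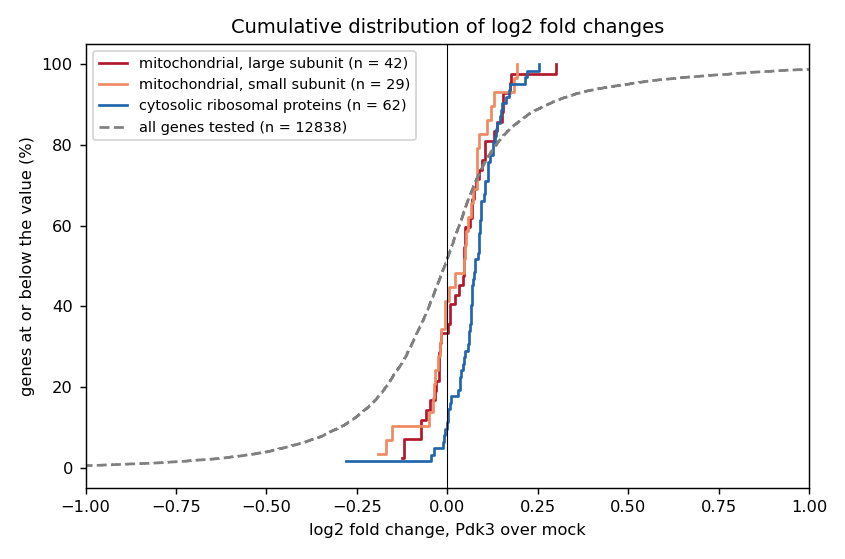
Cumulative share of genes (vertical axis, percent) at or below a given log2 fold change of Pdk3 over mock (horizontal axis, drawn from -1 to 1) for large subunit, small subunit, cytosolic and all tested genes. The curves of both mitochondrial subunits run close together and are steeper than that of all genes, and at its median of 0.077 the cytosolic curve lies to their right.

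The factors that work with this ribosome moved little as well. Of 16 measured translation factors and mitochondrial messenger RNA binding proteins 1 rose and 0 fell, 6.25% beside 22.9% of all genes, with a median log2 fold change of -0.007. The gene that rose was Lrpprc, which stabilises mitochondrial messenger RNAs, with 1285 and 1306 in the Pdk3 libraries, against 1163 and 1178 in the mock libraries. Its log2 fold change was 0.15 ± 0.02 (limma adjusted p = 0.00376, and 0.00569 with the counting floor). With cytosolic genes level it was 0.07 (limma adjusted p = 0.0519), and without an intensity trend the adjusted p was 0.11. The elongation factors Tufm and Gfm1 had log2 fold changes of -0.003 and -0.01 (limma adjusted p = 0.95 and 0.784). With 2 of these 16 at an unadjusted limma p under 0.05, Lrpprc was also the 1 gene of the list with an unadjusted binomial p under 0.05.

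Of 25 measured assembly factors of the mitoribosome 1 rose and 1 fell, 8.0% of the list beside 22.9% of all genes tested. Their median log2 fold change was 0.019. Tfb1m, which methylates the ribosomal RNA of the small subunit, had 175 and 192 in the Pdk3 libraries, against 145 and 147 in the mock libraries. Its log2 fold change was 0.33 ± 0.08 (limma adjusted p = 0.0197, 0.0279 floored at counting noise, 0.0697 with no filter and 0.0739 without an intensity trend). Rpusd4, a pseudouridine synthase acting on mitochondrial RNA, had 104 and 119 in the Pdk3 libraries, against 142 and 139 in the mock libraries. Its log2 fold change was -0.33 ± 0.09 (limma adjusted p = 0.0403, 0.0637 floored at counting noise, and 0.0519 with the replicate number as a block). Log2 fold changes of this list ran from -0.347 to 0.326, a wider range than that of the ribosomal proteins. The lowest belonged to Ybey, which did not pass (limma adjusted p = 0.0868). Values of this list were lower, with a median of 164.8 beside 229.0 for the members. Its median limma standard error was 0.076, beside 0.06.

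Members were spread over 19 chromosomes, with 12 on chromosome 10 and 11 on chromosome 1 in build rn6. A total of 16 members had a neighbour starting within 1000 bases on the opposite strand, head to head. Mrpl46 and Mrps11 form such a pair with starts 72 bases apart. Mrpl46 had 189 and 211 in the Pdk3 libraries and 183 and 204 in the mock libraries, and Mrps11 had 205 and 215 in the Pdk3 libraries and 210 and 215 in the mock libraries. Neither passed (limma adjusted p = 0.718 and 0.866). Mrps12 starts 16 bases from Sars2, which encodes the mitochondrial seryl-tRNA synthetase, with log2 fold changes of 0.05 for both genes. Mrps27, which rose, starts 67 bases from Ptcd2, which had 175 and 181 in the Pdk3 libraries and 176 and 166 in the mock libraries (log2 fold change 0.06, limma adjusted p = 0.587). The difference between Mrps27 and Ptcd2 was not tested. Some other such neighbours passed. Klc4 beside Mrpl2, Pnpla7 beside Mrpl41 and Eme2 beside Mrps34 fell (log2 fold change -0.31, -0.49 and -0.30, limma adjusted p = 0.00175, 0.00564 and 0.0374). Tcp1 beside Mrpl18 rose (0.15, limma adjusted p = 0.0363). Floored at counting noise, Eme2 and Tcp1 did not pass (adjusted p = 0.0563 and 0.136). Mrpl2, Mrpl41, Mrps34 and Mrpl18 did not pass.

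The gene spans of 9 members overlap a gene on the opposite strand. Libraries were stranded per the labels' protocols, but the strand setting of the counting is not given in the sources used here, so reads of such pairs cannot be assigned with certainty. Mrpl57 shares 1073 bases with Ska3, a gene of the spindle attachment complex. Ska3 rose, with 182 and 165 in the Pdk3 libraries, against 79 and 88 in the mock libraries (log2 fold change 1.05, limma adjusted p = 0.000361). Mrpl57 had 129 and 132 in the Pdk3 libraries, against 142 and 142 in the mock libraries (log2 fold change -0.12, limma adjusted p = 0.295). Mrpl13 shares 78 bases with Mtbp, which rose as well (218 and 210 in the Pdk3 libraries, against 102 and 105 in the mock libraries, limma adjusted p = 0.000105). Mrpl13 had 281 and 266 in the Pdk3 libraries and 273 and 273 in the mock libraries. Other overlapping genes fell: Gga3, Syvn1, Twnk and Ighmbp2 (log2 fold change -0.27, -0.26, -0.19 and -0.17, limma adjusted p = 0.00377, 0.0198, 0.0205 and 0.0271). Floored at counting noise, Twnk and Ighmbp2 did not pass (adjusted p = 0.0556 and 0.115). The members they overlap, Mrps7, Mrpl49, Mrpl43 and Mrpl21, did not pass. None of the 4 members past the threshold overlaps another gene of the table.

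The 2 members left out of the test had almost no reads. Mrpl1 had 3 and 3 in the Pdk3 libraries and 0 and 3 in the mock libraries. Mrps21l, a row of the table with a symbol like that of Mrps21, had 0 and 1 in the Pdk3 libraries and 2 and 4 in the mock libraries.

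The spread within each pair of libraries was smaller than counting noise. Among the 71 members tested it was 0.349 of the counting variance in the Pdk3 pair and 0.321 in the mock pair, and among 10583 genes with a mean of at least 50 it was 0.547 and 0.553 in the Pdk3 and mock pairs. The treatment of duplicate reads is not given in the sources used here, and its part in this spread was not tested. The 10 genes of highest value had a median gene span of 136397 bases, beside 18872 over all genes in the table. Cytosolic ribosomal protein genes had a median value of 207.1, beside 229.0 for the members. Whether fold changes of short genes are compressed in these values was not tested. Floored at counting noise, 1 member passed, Mrpl19, or 1.41%, beside 15.8% of all genes tested.

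**Figure D5:**
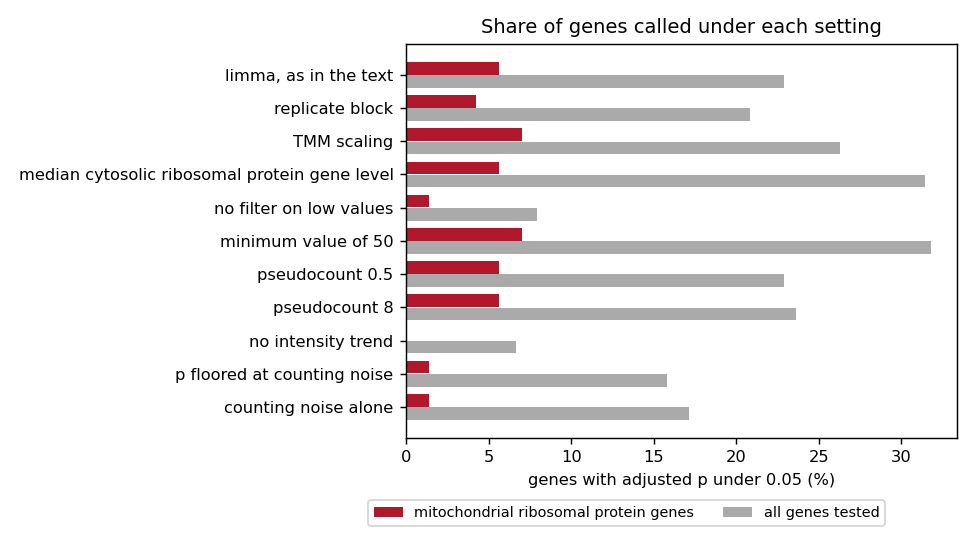
Share of genes past the threshold (horizontal axis, percent, from 0) among the mitochondrial ribosomal protein genes and among all genes tested under each setting that keeps all 4 libraries. The members' share lies between 0 without an intensity trend and 7.04 with TMM scaling or a minimum value of 50, and below that of all genes under each setting drawn.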

How the data were processed

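RNA was measured in 4 libraries. Per the submitters' processing notes the tools were FastQC, Trimmomatic 0.39, STAR 2.6.1d, featureCounts 1.6.5 from Subread and DESeq2 1.26.0 with build rn6, and their settings are not given in the sources used. The deposited values are used as a score: read counts per gene that the authors normalised between libraries and rounded to whole numbers, with totals of 4448199 to 4476649 and scaling factors of 0.9246 to 1.0567 recovered from skipped or doubled whole numbers.

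Values were tested as log2(value + 1) with limma 3.58.1 in R 4.3.3, with an intensity trend, group as the single term, a minimum value of 10 in at least 2 libraries and Benjamini-Hochberg adjustment over 12838 genes. Residual degrees of freedom were 2 and the prior 5.559. The counting floor replaces limma's p by the exact two-sided binomial p of reads summed per group where that is larger. The fit was tested on simulated data.

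Members and lists were chosen with earlier results of these data known, and lists are described by counts and medians. Named genes are Pdk3, all members past the threshold, extremes of value and fold change per subunit, genes of known role, and listed factors past the threshold. Mrpl3, Mrpl13, Mrpl46, Mrpl32, Mrps11, Rps18, cell markers, neighbouring genes and the members beside them are named outside that rule. The alternatives tried were other scalings, filters, pseudocounts and thresholds, a block for the replicate number, libraries left out singly, no trend, the counting floor and a grouping by place. Chosen after seeing the data were counting noise alone and members without overlapping genes.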

Additional observations from a re-analysis of the deposited data

How the results depend on the processing

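With 1 library left out, limma had 1 residual degree of freedom, the lone library was assumed to vary like the other group, and 0 genes were called in each list and over all genes (2918 to 3330 genes at an unadjusted p under 0.05). By counting noise alone the same fits called 0 to 1 members higher, 0 lower, 0 to 1 translation factors higher, 0 to 1 assembly factors higher and 0 lower, and 777 to 844 of all genes higher and 602 to 743 lower. Deviations of the same-numbered libraries had a correlation of 0.00356. The spread within pairs was below counting noise, so this value cannot show whether the numbers pair the samples. With the replicate number as a block limma called 3 members higher and 0 lower, 0 assembly factors lower and 2672 of all genes. TMM scaling added Mrpl3 and gave 2 assembly factors lower, as did a minimum value of 50. With the median cytosolic gene level, which shifted log2 fold changes by 0.077, 1 member was higher and 3 lower, 0 translation factors higher and 4 lower, 5 assembly factors lower, and 929 of all genes higher and 3085 lower. Medians there were -0.032 for the large subunit and for all members, -0.030 for the small subunit and 0.0 for cytosolic genes. With no filter 1 member was higher and 0 lower, 0 assembly factors passed either way, and 737 genes were higher and 539 lower. Without an intensity trend 0 members (12 at an unadjusted p under 0.05), 0 translation factors and 0 assembly factors passed, beside 526 genes higher and 325 lower. Floored at counting noise 1 member was higher and 0 lower, 0 assembly factors were lower, and 957 genes were lower. Counting noise alone gave 1 member higher, 0 lower and 0 assembly factors lower. At a false discovery rate of 0.01, 0 members and 0 assembly factors passed, beside 766 genes higher and 576 lower. Without members overlapping another gene the small subunit median was 0.013. Pseudocounts of 0.5 and 8 kept the count of 4 members. Of 59 named genes carried through these settings, 14 that had not passed changed sign with the cytosolic gene level, 3 with TMM scaling and 4 to 12 with a library left out. No called gene among them changed sign. The cause of these differences was not tested.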
